A study of Mus musculus with 13 samples.

Results

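A set of 10 marker genes of liver macrophages was followed in mouse liver tumours after Yap was silenced. Clec4f, Vsig4, Cd5l, Marco and Timd4 mark the resident macrophages of the liver, the Kupffer cells, and Emr1, Lyz1, Lyz2, Csf1r and Cd68 are expressed by macrophages of most tissues. The members were taken by gene name, and they and the further lists below were chosen with earlier results of these data known. All 10 were found among the 23361 genes in the tables, and all 10 passed the filter on low counts. Emr1 is the older symbol of Adgre1, which encodes the antigen F4/80.

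The tumours were hepatocellular carcinomas, the main cancer of hepatocytes. All animals, controls included, were Mst1-/-; Mst2Flox/Flox mice of a mixed C57BL/6 and 129Sv background that had been injected with Adeno-Cre. The Hippo kinase Mst1 was therefore missing from every cell, macrophages too, and Mst2 was removed by a virus in the liver. The siYap group was 5 tumour libraries from mice given siYap-LNPs, lipid nanoparticles that carry an siRNA against the co-activator Yap, intravenously over 9 days. The siLuc group was 8 libraries from mice given siLuciferase-LNPs over the same time, whose siRNA has no target in the mouse. The animals' age is not in the labels. Nor do the labels say whether each library is a separate animal. The p-values therefore rest on the scatter among these 13 libraries, part of which may be technical.

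Kupffer cells sit inside the liver sinusoids, where they clear bacteria, dying cells, old red cells and particles from portal blood. Most descend from embryonic precursors, and monocytes of the bone marrow can refill the niche when Kupffer cells are lost. The receptor Csf1r keeps the whole macrophage lineage alive, while signals from sinusoidal endothelium, stellate cells and hepatocytes shape the Kupffer programme. In whole tumour RNA, fewer cells of a type and less RNA per cell cannot be told apart, and this holds for every value given here.

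Yap1, the target of the siRNA, averaged 3.29 ± 0.845 FPKM in siYap tumours and 10 ± 1.37 FPKM in siLuc tumours, with no overlap (log2 fold change -1.58 ± 0.17 SE, adjusted p = 2.36e-05, edgeR). FPKM is fragments scaled by transcript length and by library depth, which allows levels of different genes to be compared. Depth lay between 23637018 and 37043914 fragments. The siYap libraries 1 and 3 were the least deep and held the most of the ribosomal transcript Rn45s, with 1160.2 and 1882.3 CPM (counts scaled to library depth) against 479.5 to 811.8 CPM in the other 11 libraries. Library siLuc 8 held 28874 fragments of 4 Y-linked genes, while the other libraries held 11 or fewer. Such a level is that of male tissue, seen in siLuc 8 alone, and sex was not a term in the fit. A code in the library names starts with the digit 6, 7 or 8. The digit 8 has 1 library of each treatment, siYap 5 and siLuc 8. The names also carry a number, with 3 different numbers in siYap and 5 in siLuc, and the labels do not say what either marks. A number is shared by siYap 1 and 2, by siYap 3 and 4, by siLuc 1 and 2, and by siLuc 5, 6 and 7. No number is shared between treatments.

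Most members had lower levels in siYap tumours. Of the 5 general genes, 4 (Emr1, Lyz1, Lyz2 and Csf1r) were lower in siYap tumours, with mean levels between 0.393 and 0.6 times those of siLuc tumours, and none was higher. Of the 5 Kupffer genes, 1 (Clec4f) was lower and none was higher. Across all 15132 genes tested, 30.8% were called at an adjusted p under 0.05, 14.8% lower and 16.0% higher in siYap tumours. Members and lists were chosen with earlier results known, so their counts beside such shares, here and below, are no test. The median log2 fold change was -1.15 over the 5 general genes and -1.45 over the 5 Kupffer genes, beside -0.00 over all genes tested. Each set had 1 member with a positive log2 fold change, Cd68 and Cd5l, and whether the sets differed from each other was not tested.

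**Figure D1:**
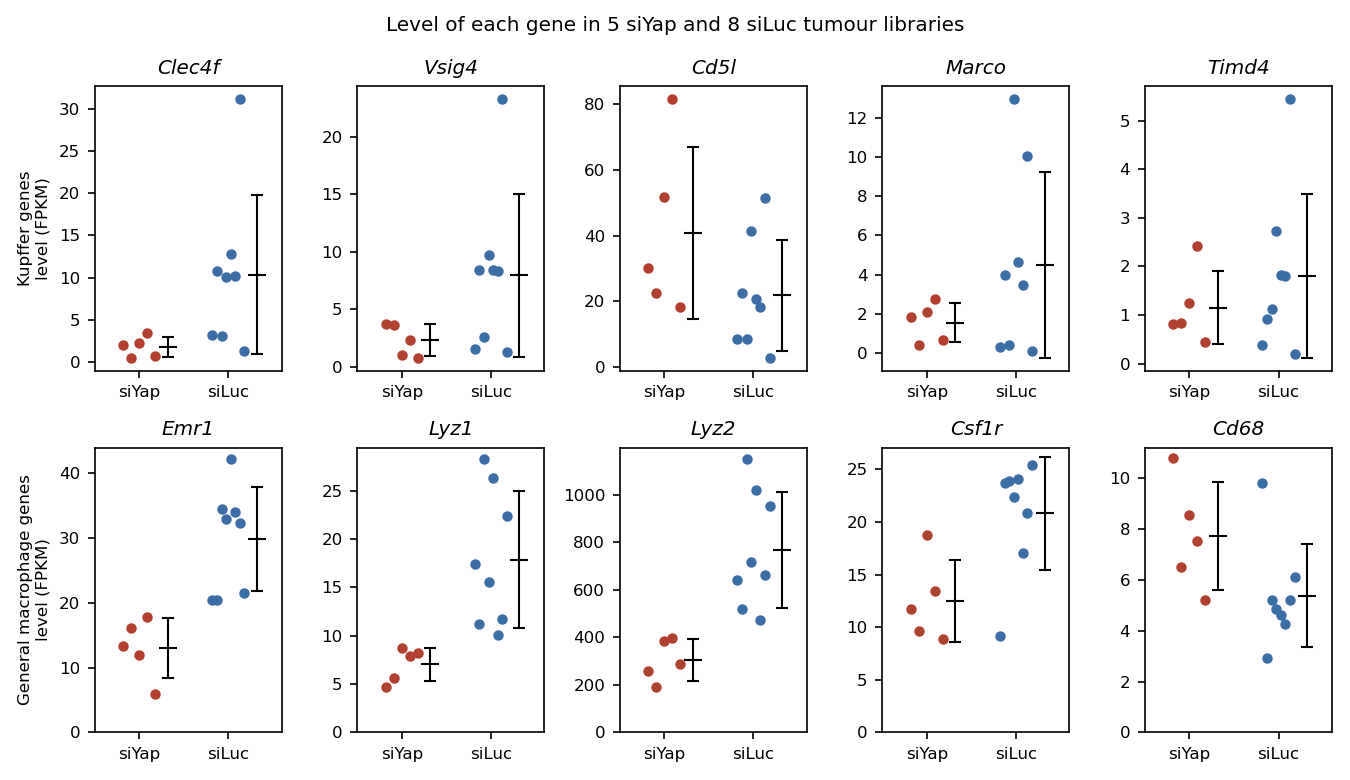
Level of each of the 10 genes in FPKM, 1 point per library, siYap in red and siLuc in blue; the bar beside each group is the mean ± SD (n = 5 and n = 8). The siYap points of Emr1, Lyz1 and Lyz2 lie below all siLuc points, whereas every Kupffer gene has overlapping groups and a wide siLuc range.

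The Kupffer genes encode surface and secreted proteins of clearance. Clec4f (chr6:83644542-83656116) is a C-type lectin that binds galactose-bearing glycans and is found in mice almost only on Kupffer cells. It had 2.05, 0.456, 2.18, 3.43 and 0.689 FPKM in the siYap libraries. In the siLuc libraries the lowest value was 1.32, the median 10.2 and the highest 31.2 FPKM. Most siYap libraries were therefore below most siLuc libraries, but siLuc 8 (1.32 FPKM), siLuc 3 (3.06 FPKM) and siLuc 1 (3.19 FPKM) fell among the siYap values. The means were 1.76 ± 1.21 FPKM in siYap tumours and 10.3 ± 9.47 FPKM in siLuc tumours (log2 fold change -2.47 ± 0.72 SE, adjusted p = 0.0193, edgeR). The call held when any 1 library was left out. It was lost without siYap 1 and 3 together (adjusted p = 0.0688, edgeR) and when counts were summed per number in the library names (adjusted p = 0.0796, edgeR).

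Vsig4 (chrX:96247201-96293438) is the complement receptor CRIg, through which Kupffer cells take up opsonised bacteria. It had 3.74, 3.63, 0.98, 2.35 and 0.744 FPKM in the siYap libraries, against a lowest of 1.23, a median of 8.38 and a highest of 23.3 FPKM in the siLuc libraries. The highest siYap values again lay above those of siLuc 1, 3 and 8. This difference missed the threshold (log2 fold change -1.72 ± 0.69 SE, adjusted p = 0.0723, edgeR). It passed without siLuc 1 (adjusted p = 0.0456, edgeR) or without siLuc 8 (adjusted p = 0.0384, edgeR).

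Cd5l (chr3:87357881-87371074) encodes the secreted protein AIM, an inhibitor of macrophage apoptosis that binds fatty acid synthase. Unlike the other Kupffer genes, it had a higher mean in siYap tumours, 40.9 ± 26.2 FPKM, than in siLuc tumours, 21.8 ± 16.9 FPKM. The siYap libraries had 30.2, 22.6, 51.9, 81.6 and 18.3 FPKM. The siLuc libraries had a lowest value of 2.77, a median of 19.6 and a highest of 51.4 FPKM. The groups overlapped widely, and the difference missed the threshold (log2 fold change 0.95 ± 0.55 SE, adjusted p = 0.208, edgeR). With the digit of the library code as a term it was 1.37 (adjusted p = 0.0288, edgeR).

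Marco (chr1:120474538-120505024) is a scavenger receptor for bacteria and particles. It had 1.8, 0.395, 2.06, 2.75 and 0.625 FPKM in the siYap libraries. The siLuc libraries ran from 0.0757 FPKM in siLuc 8, which rests on 6 fragments, to 13 FPKM in siLuc 4, a range of 172-fold that enclosed all siYap values. Timd4 (chr11:46810786-46844333) encodes a receptor for phosphatidylserine on dying cells and marks embryonically derived Kupffer cells. It had 0.822, 0.837, 1.24, 2.42 and 0.449 FPKM in the siYap libraries, against 0.205 to 5.45 FPKM with a median of 1.46 FPKM in the siLuc libraries. Neither difference passed the test. The log2 fold changes were -1.45 ± 0.95 SE for Marco (adjusted p = 0.263, edgeR) and -0.61 ± 0.64 SE for Timd4 (adjusted p = 0.487, edgeR).

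**Figure D2:**
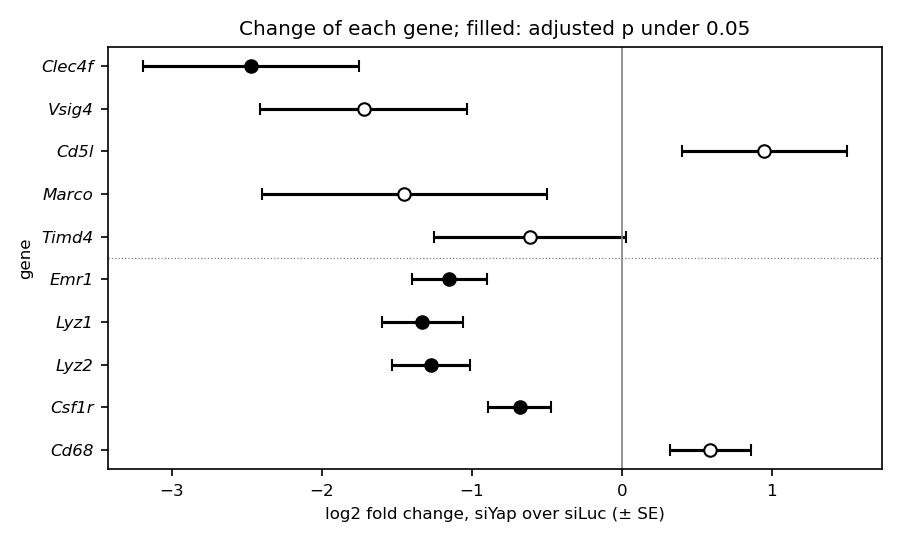
Log2 fold change of each gene, siYap over siLuc, with its standard error from edgeR; filled points have an adjusted p under 0.05. Emr1, Lyz1, Lyz2, Csf1r and Clec4f are filled, and the standard errors of the Kupffer genes, between 0.55 and 0.95, are wider than those of the general genes, between 0.21 and 0.27.

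The general genes varied less from library to library. In siLuc tumours the highest library exceeded the lowest by 2.07 to 3.33 times for the 5 general genes and by 18.6 to 172 times for the 5 Kupffer genes. Emr1 (chr17:57358581-57483529), an adhesion receptor and the classical F4/80 surface antigen, had 13.4, 16.1, 11.9, 17.9 and 5.97 FPKM in the siYap libraries, against 20.4 to 42.2 FPKM with a median of 32.7 FPKM in the siLuc libraries. Every siYap library lay below every siLuc library (log2 fold change -1.15 ± 0.25 SE, adjusted p = 0.00389, edgeR). Library siYap 5 had the lowest value of all 13.

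Csf1r (chr18:61105572-61131139), the receptor for Csf1 and Il34, had 11.7, 9.65, 18.8, 13.4 and 8.92 FPKM in the siYap libraries. The siLuc libraries had a lowest value of 9.16, a median of 23 and a highest of 25.4 FPKM. The groups overlapped through siLuc 1, the lowest siLuc library, and siYap 3, which lay above the 17.1 FPKM of siLuc 6. Csf1r was lower in siYap tumours (log2 fold change -0.68 ± 0.21 SE, adjusted p = 0.027, edgeR). The call was lost without siYap 2 (adjusted p = 0.0663, edgeR) and without siYap 5 (adjusted p = 0.0676, edgeR).

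Cd68 (chr11:69664213-69666170), a glycoprotein of macrophage lysosomes, had a higher mean in siYap tumours, 7.72 ± 2.12 FPKM, than in siLuc tumours, 5.37 ± 2.01 FPKM. It had 10.8, 6.48, 8.56, 7.53 and 5.21 FPKM in the siYap libraries, against 2.94 to 9.81 FPKM with a median of 5.01 FPKM in the siLuc libraries. The highest siLuc value was that of siLuc 1. This difference missed the threshold (log2 fold change 0.59 ± 0.27 SE, adjusted p = 0.113, edgeR), and it passed without siLuc 1 (0.78, adjusted p = 0.0219, edgeR).

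Lyz1 (chr10:117287795-117292868) and Lyz2 (chr10:117277541-117282272) are neighbouring genes for lysozyme, the enzyme that cuts bacterial cell walls. Lyz2 had 257.4, 189.4, 384.2, 399.1 and 288.2 FPKM in the siYap libraries, against a lowest of 473.2, a median of 690.7 and a highest of 1152 FPKM in the siLuc libraries. Lyz1 had 4.74, 5.58, 8.7, 7.86 and 8.26 FPKM in the siYap libraries, against 10.1 to 28.3 FPKM with a median of 16.5 FPKM in the siLuc libraries. For both, every siYap library lay below every siLuc library. The log2 fold changes were -1.27 ± 0.26 SE for Lyz2 (adjusted p = 0.00219, edgeR) and -1.33 ± 0.27 SE for Lyz1 (adjusted p = 0.00239, edgeR).

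The pair is not independent evidence. Their transcripts, of 1263 bases for Lyz1 and 1316 bases for Lyz2, were 96.0% identical over 1262 aligned bases, and 16.1% of the 50-base windows of Lyz1 also occurred in Lyz2. Lyz2 exceeded Lyz1 by 34 to 54.3 times in siYap libraries and by 36.8 to 57 times in siLuc libraries. Whether fragments of Lyz2 were assigned to Lyz1 was not tested. How the authors' counting treated such reads was not stated in the sources used here, and Lyz1 is uncertain for that reason. Without it, 3 of the 4 other general genes were lower, and 2 of these, Emr1 and Lyz2, had no overlap between groups.

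Across all genes tested, 5.66% had every siYap library below every siLuc library and 5.57% had every siYap library above. Among the general macrophage genes 3 of 5 were in the first class and 0 of 5 in the second. Among the Kupffer genes no member was in either.

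The sequence just upstream of the lysozyme pair is shown because the pair moved together, with r = 0.87 between their deviations from the group means. As Lyz1 is uncertain, so is this r, and the part of the upstream sequence in it was not tested. Over the 120 bases before the start of each gene, on the minus strand of GRCm38.p6 (RefSeq), the pair differed at 9 positions, set in capitals, and was 92.5% identical. The stretches are chr10:117292869-117292988 for Lyz1 and chr10:117282273-117282392 for Lyz2, written 5′ to 3′ so that the gene follows the last base.
Lyz1: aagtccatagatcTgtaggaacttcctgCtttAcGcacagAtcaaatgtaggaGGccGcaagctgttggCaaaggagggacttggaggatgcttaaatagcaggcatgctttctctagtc
Lyz2: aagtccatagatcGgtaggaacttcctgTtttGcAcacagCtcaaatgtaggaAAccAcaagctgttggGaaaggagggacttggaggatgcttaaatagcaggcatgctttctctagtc
The 50 bases nearest to the start were identical.

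On the FPKM scale Lyz2 was the highest of the 10 genes in both groups. In siYap tumours Cd5l (40.9 FPKM), Emr1 (13 FPKM) and Csf1r (12.5 FPKM) followed, then Cd68 (7.72 FPKM), Lyz1 (7.03 FPKM), Vsig4 (2.29 FPKM), Clec4f (1.76 FPKM), Marco (1.53 FPKM) and Timd4 (1.15 FPKM). In siLuc tumours the order was Emr1 (29.8 FPKM), Cd5l (21.8 FPKM), Csf1r (20.8 FPKM), Lyz1 (17.9 FPKM), Clec4f (10.3 FPKM), Vsig4 (7.93 FPKM), Cd68 (5.37 FPKM), Marco (4.5 FPKM) and Timd4 (1.8 FPKM). Below Lyz2, neighbours in each order had overlapping ranges, except in siYap tumours Cd5l over Emr1 (lowest Cd5l value 18.3 FPKM, highest Emr1 value 17.9 FPKM) and Lyz1 over Vsig4 (lowest Lyz1 value 4.74 FPKM, highest Vsig4 value 3.74 FPKM).

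The Kupffer genes went up and down together over the siLuc libraries, and all but Vsig4 did so over the siYap libraries. Among siLuc tumours, siLuc 7 was the highest for Clec4f, Vsig4, Cd5l and Timd4 and the second for Marco, and siLuc 8 was the lowest for all 5. Libraries siLuc 1, 3 and 8 were the 3 lowest for Clec4f, Vsig4, Cd5l and Marco. Among siYap tumours, siYap 4 was the highest for all but Vsig4, whose highest was siYap 1. Clec4f over Vsig4, as a ratio of FPKM, ran from 0.125 to 2.22 in siYap libraries and from 1.04 to 2.13 in siLuc libraries. Correlations of the deviations from the group mean of log2 CPM, over the 13 libraries, ran from 0.74 to 0.95 in the 10 pairs of Kupffer genes, with a median of 0.86.

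The general genes as a set did not share this pattern. The deviations of their 10 pairs had r between -0.13 and 0.87, with a median of 0.26. The 25 pairs of a Kupffer and a general gene had r between -0.66 and 0.64, with a median of -0.14. These differed by general gene. Emr1 had r between 0.4 and 0.64 with every Kupffer gene, above its r with any other general gene, at most 0.32. Csf1r had r between 0.16 and 0.3 with every Kupffer gene, and Lyz1, Lyz2 and Cd68 were negative with each. Library siLuc 8, the lowest siLuc library for every Kupffer gene, was the highest for Csf1r and the third for Lyz1 and Lyz2. The correlations describe libraries that differ in depth and share codes in their names, and they carry no test.

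**Figure D3:**
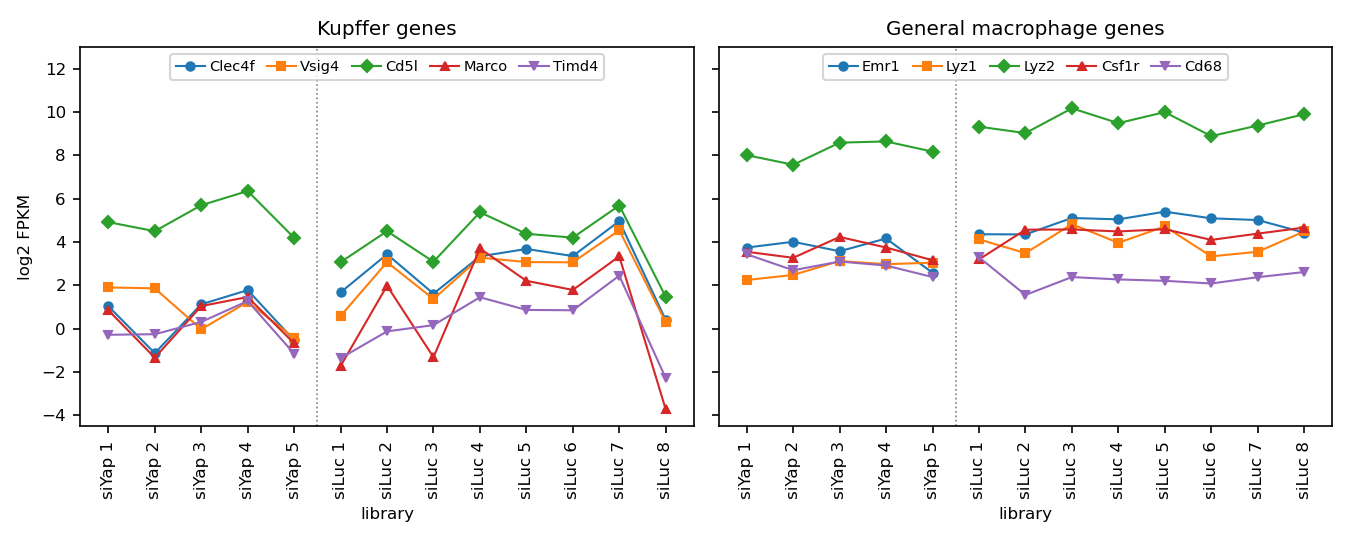
Log2 FPKM of each gene across the 5 siYap and 8 siLuc libraries, Kupffer genes on the left and general macrophage genes on the right; lines join the values of 1 gene within a treatment and have no meaning as an order. The Kupffer genes share a peak at siLuc 7 or siLuc 4 and a low at siLuc 8, while the general genes are flatter.

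Since the deviations of the Kupffer genes correlated over the 13 libraries, each was also set against the others within each library. Clec4f over Cd5l, as a ratio of FPKM, was 0.0678, 0.0202, 0.042, 0.0421 and 0.0377 in the siYap libraries. It was between 0.245 and 0.615 in the 8 siLuc libraries. The groups did not overlap, although the levels of either gene alone did. On the log2 scale the ratio averaged -4.68 ± 0.63 in siYap tumours and -1.17 ± 0.45 in siLuc tumours (SD, n = 5 and n = 8), a difference of -3.51. The same was seen for Vsig4 over Cd5l, at 0.0189 to 0.161 in siYap libraries and 0.178 to 0.454 in siLuc libraries.

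Of the 10 pairs of Kupffer genes, 4 had ratios without overlap between treatments, and 3 of these 4 contained Cd5l. The other pairs without overlap were Cd5l over Timd4 (27 to 41.9 in siYap libraries, 7.57 to 24.7 in siLuc libraries) and Clec4f over Timd4 (0.544 to 2.49 in siYap libraries, 2.72 to 11.7 in siLuc libraries). Clec4f, Vsig4 and Timd4 thus all lay lower relative to Cd5l in every siYap library, and Marco over Cd5l overlapped. Relative to Cd5l, 1.79% of the other 15131 genes tested lay below in every siYap library, a figure that includes genes that do not follow Cd5l from library to library. Clec4f over Marco was almost constant in siYap libraries, at 1.06 to 1.25, and ran from 0.777 to 17.4 in siLuc libraries. Of the general genes, 2 of 10 pairs had no overlap, Lyz1 over Cd68 and Lyz2 over Cd68, and of the 25 mixed pairs 0 did. The 1.79% covers only ratios to Cd5l that were lower in siYap libraries. The share without overlap among pairs of genes in general was not computed, so the counts of pairs have no background beside them. These ratios were all looked at after the gene levels were known and are given without a test.

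The 250 bases upstream of the 5 Kupffer genes are shown because the deviations of their levels from the group means correlated over the 13 libraries. Capitals mark GAGGAA or its reverse complement TTCCTC, the core of sites bound by PU.1, the transcription factor that macrophages need. RefSeq upstream sequence was read for 8 of the 10 genes, and 4 of these 8 (Vsig4, Cd5l, Marco and Cd68) held a match on either strand, against 23.3% of 32851 promoters of the same length. Each sequence runs 5′ to 3′ towards the gene, in GRCm38.p6, from chr6:83656117-83656366 (minus strand) for Clec4f, chrX:96293439-96293688 (minus) for Vsig4, chr3:87357631-87357880 (plus) for Cd5l, chr1:120505025-120505274 (minus) for Marco and chr11:46810549-46810798 (plus) for Timd4.
Clec4f: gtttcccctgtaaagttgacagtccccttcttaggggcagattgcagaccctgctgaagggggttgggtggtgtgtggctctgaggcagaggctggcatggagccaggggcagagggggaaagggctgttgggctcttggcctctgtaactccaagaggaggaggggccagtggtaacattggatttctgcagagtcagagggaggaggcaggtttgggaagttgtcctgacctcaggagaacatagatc
Vsig4: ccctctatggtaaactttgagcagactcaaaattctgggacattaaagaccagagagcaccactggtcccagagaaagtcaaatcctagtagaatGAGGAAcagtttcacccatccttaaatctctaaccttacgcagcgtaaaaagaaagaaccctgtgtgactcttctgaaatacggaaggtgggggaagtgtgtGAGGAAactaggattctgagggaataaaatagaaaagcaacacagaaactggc
Cd5l: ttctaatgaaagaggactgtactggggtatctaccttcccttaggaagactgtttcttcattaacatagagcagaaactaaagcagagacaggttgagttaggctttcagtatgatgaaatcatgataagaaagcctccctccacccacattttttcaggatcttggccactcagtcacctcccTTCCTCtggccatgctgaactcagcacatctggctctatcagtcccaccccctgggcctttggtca
Marco: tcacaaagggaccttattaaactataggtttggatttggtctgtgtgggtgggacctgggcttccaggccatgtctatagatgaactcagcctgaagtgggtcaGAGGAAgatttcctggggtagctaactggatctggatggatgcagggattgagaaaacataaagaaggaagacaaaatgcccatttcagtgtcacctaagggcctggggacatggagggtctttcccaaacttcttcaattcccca
Timd4: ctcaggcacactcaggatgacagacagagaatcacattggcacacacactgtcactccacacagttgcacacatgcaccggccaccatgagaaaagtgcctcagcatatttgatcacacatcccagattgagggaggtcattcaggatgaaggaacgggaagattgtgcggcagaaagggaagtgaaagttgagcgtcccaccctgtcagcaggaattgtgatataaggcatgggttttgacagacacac
Vsig4 held 2 matches, Cd5l and Marco 1 each, and Clec4f and Timd4 held none in this window. The stretch read for Timd4 ends at chr11:46810798, past the gene start of 46810786, so its last bases lie within the gene. A match is a string of letters and was not tested as a binding site, and the share of 4 in 8 was not tested. Clec4f and Timd4, without a match, had r = 0.93 and 0.92 with Cd5l. Cd68, with a match, had r between -0.25 and -0.08 with the Kupffer genes. The part of the motif in these correlations was not tested.

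**Figure D4:**
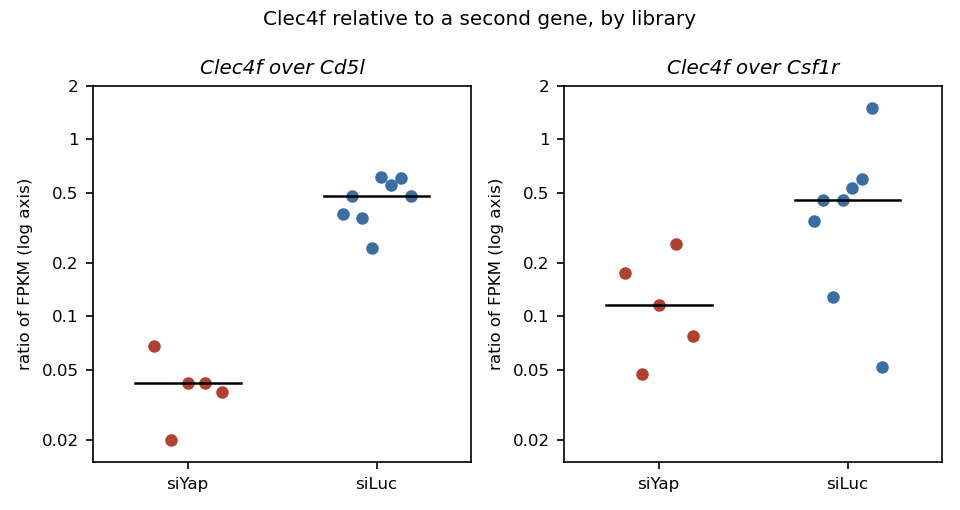
Ratio of Clec4f to Cd5l (left) and of Clec4f to Csf1r (right) in FPKM on a log axis, 1 point per library, siYap in red and siLuc in blue, with the group median as a line. Clec4f over Cd5l separates the groups, at most 0.0678 in siYap and at least 0.245 in siLuc libraries, while Clec4f over Csf1r overlaps.

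The ratio of Clec4f to Csf1r asks whether Clec4f, the most restricted of the set, was lowered more than this single general gene. Clec4f over Csf1r was 0.176, 0.0472, 0.116, 0.256 and 0.0773 in the siYap libraries. In the siLuc libraries it had a lowest value of 0.0519 (siLuc 8), with 0.128 in siLuc 3 and a highest of 1.5 in siLuc 7. The other 6 siLuc libraries lay above all siYap libraries. On the scale of log2 with 0.1 added to each FPKM, the ratio was -3.02 ± 0.86 in siYap tumours and -1.49 ± 1.45 in siLuc tumours (SD, n = 5 and n = 8). The difference of -1.53 missed the threshold of 0.05 (two-sided exact permutation test over 1287 assignments, p = 0.0606, where the smallest possible p is 0.000777). This test took each library as separate, also those that share a number in their names. Leaving out 1 library passed the threshold for siYap 4 (exact p = 0.0444), siLuc 3 (exact p = 0.0429) and siLuc 8 (exact p = 0.0101). Against Cd68 in place of Csf1r the difference was -2.80 (exact p = 0.00932), and with Emr1 it was -1.02 (exact p = 0.169). Cd68 itself had a higher mean in siYap tumours. With Lyz1 the difference was -0.98 and with Lyz2 -0.93, both without a test.

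The digit in the library names gave within-digit differences in log2 CPM, siYap minus siLuc. For Clec4f they were -2.48, -1.95 and -0.90 for the digits 6, 7 and 8, and for Cd5l 1.0, 1.46 and 2.72. Lyz2 gave -1.31, -0.99 and -1.72 and Emr1 -0.38, -1.28 and -1.84. Lyz1 gave -1.37, -1.04 and -1.42 and Csf1r -0.38, -0.45 and -1.5. Clec4f, Cd5l, Lyz2, Emr1, Lyz1 and Csf1r thus kept their sign in each digit. Vsig4 (0.09, -2.45 and -0.68), Marco (-0.31, -0.72 and 2.64), Timd4 (0.55, -0.38 and 1.05) and Cd68 (0.75, 0.71 and -0.22) did not. The digit 8 compares siYap 5 with siLuc 8 alone, which also differ in Y-linked fragments, 7 in siYap 5 and 28874 in siLuc 8. Treatment and sex cannot be told apart there.

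The direction of Clec4f was not shared by most other genes of the Kupffer programme that passed the test. Of 16 other Kupffer genes, 7 were higher and 1 was lower in siYap tumours, with a median log2 fold change of 0.64 against -0.00 over all genes tested. Over all genes tested, 16.0% were called higher and 14.8% lower. Spic, the factor that drives iron-handling macrophages, averaged 3.56 ± 1.2 FPKM in siYap tumours and 1.04 ± 0.508 FPKM in siLuc tumours (log2 fold change 1.77, adjusted p = 0.000948, edgeR). Hmox1, the heme-degrading enzyme, averaged 12.3 ± 3.03 FPKM in siYap tumours and 4.54 ± 1.53 FPKM in siLuc tumours (1.5, adjusted p = 0.00143, edgeR). Sdc3, a heparan sulfate proteoglycan, averaged 7.59 ± 2.48 FPKM in siYap tumours and 2.98 ± 0.838 FPKM in siLuc tumours (1.42, adjusted p = 0.000759, edgeR). All 3 had every siYap library above every siLuc library, and none of the 3 is expressed by Kupffer cells alone.

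Genes shared by macrophages of many tissues were followed by a further pair of lists. Of 15 other macrophage genes, 5 were lower and 0 higher, with a median log2 fold change of -0.58. The shares over all genes tested, for this list and the next, were 14.8% lower and 16.0% higher. Ms4a7, a membrane protein of mature macrophages, averaged 6.92 ± 1.87 FPKM in siYap tumours and 29.6 ± 13.3 FPKM in siLuc tumours, without overlap (-2.08, adjusted p = 0.000211, edgeR). Ctss, the lysosomal protease that processes antigen, averaged 177.5 ± 50.7 FPKM in siYap tumours and 371.9 ± 78.9 FPKM in siLuc tumours (-1.09, adjusted p = 0.00153, edgeR), and Mgl2, a galactose-type lectin, averaged 0.24 ± 0.102 FPKM in siYap tumours and 0.898 ± 0.494 FPKM in siLuc tumours (-1.78, adjusted p = 0.0072, edgeR). Of 13 complement C1q genes and phagocytic receptors, 3 were higher and 5 lower, with a median of -0.20. C1qa, a chain of complement C1q, averaged 54.3 ± 12.2 FPKM in siYap tumours and 106 ± 25.1 FPKM in siLuc tumours (-0.91, adjusted p = 0.00397, edgeR). Mertk, the receptor for engulfing apoptotic cells, was higher, at 13.4 ± 3.84 FPKM in siYap tumours and 5.54 ± 1.05 FPKM in siLuc tumours (1.29, adjusted p = 0.000151, edgeR), as was the scavenger receptor Msr1 (0.87, adjusted p = 0.00796, edgeR).

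The growth factors of the lineage gave no called difference. Csf1 averaged 6.53 ± 2.6 FPKM in siYap tumours and 5.89 ± 1.92 FPKM in siLuc tumours (log2 fold change 0.24, adjusted p = 0.449, edgeR), and Il34, the second ligand of Csf1r, averaged 0.802 ± 0.311 FPKM in siYap tumours and 0.839 ± 0.289 FPKM in siLuc tumours (0.00, adjusted p = 0.996, edgeR). In the list of ligands and colony stimulating factor receptors, 2 of 6 genes tested were higher and 0 lower. The share called was near the 30.8% of all genes tested. The higher genes were Csf2rb2 (1.23, adjusted p = 0.00917, edgeR) and Csf2rb (0.87, adjusted p = 0.0148, edgeR), signalling chains of cytokine receptors. The call of Csf2rb was lost without siYap 3 (adjusted p = 0.0611, edgeR), and those of both without siYap 1 and 3 (adjusted p = 0.177 for Csf2rb and 0.138 for Csf2rb2, edgeR). Of 12 macrophage transcription factors 1 was higher, Cebpb, a regulator of myeloid genes (0.90, adjusted p = 0.00394, edgeR), and 0 were lower. That share called was below the 30.8% of all genes tested.

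Of 12 signals of the Kupffer niche, 3 were higher and 0 lower, a share called below the 30.8% of all genes tested. Tgfb1, the cytokine that macrophages of many tissues need for their identity, averaged 2 ± 1.21 FPKM in siYap tumours and 0.577 ± 0.163 FPKM in siLuc tumours (log2 fold change 1.80, adjusted p = 0.000659, edgeR), and its endothelial co-receptor Eng averaged 6.71 ± 2.12 FPKM in siYap tumours and 2.98 ± 0.864 FPKM in siLuc tumours (1.24, adjusted p = 0.00144, edgeR). Both lay above in every siYap library. The receptor Notch1 was higher by 0.67 (adjusted p = 0.0173, edgeR), a call lost without siYap 3 (adjusted p = 0.0703, edgeR) and without siYap 1 and 3 together (adjusted p = 0.322, edgeR).

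Markers of other cell types were read in the same fit, beside the 30.8% of all genes tested that were called. Their part in the differences above was not tested. Of 12 neutrophil genes 11 were higher and 0 lower, with a median log2 fold change of 2.26 and a summed level of 81.3 to 695.8 CPM in siYap libraries and 26.3 to 96.4 CPM in siLuc libraries. Among them were the granule genes Ngp (3.36, adjusted p = 0.0023, edgeR) and Ltf (3.29, adjusted p = 0.00113, edgeR) and the protease Mmp9 (2.11, adjusted p = 0.00127, edgeR). Neutrophils also express Lyz2, which was lower here. The other lists of blood cells had shares called near or below that of all genes. Of 12 monocyte genes 3 were higher and 1 lower, and their summed level was 272.1 to 557.6 CPM in siYap libraries and 240.2 to 445.6 CPM in siLuc libraries. Ccr2, the chemokine receptor of inflammatory monocytes, averaged 10.2 ± 4.76 FPKM in siYap tumours and 30.7 ± 15.8 FPKM in siLuc tumours (-1.66, adjusted p = 0.0109, edgeR), while Chi3l3 (2.22, adjusted p = 0.00722, edgeR) and Treml4 (1.39, adjusted p = 0.00642, edgeR) were higher. The call of Treml4 was lost when counts were summed per number in the library names (adjusted p = 0.0545, edgeR). Chi3l3 had 61, 5.37, 15.4, 19.2 and 37.4 FPKM in siYap 1 to 5. The neutrophil gene Ngp had the same order there, with 59.8, 5.84, 10.2, 13.2 and 26.3 FPKM. Which cells expressed Chi3l3 was not tested. Of 10 genes of all leukocytes 2 were lower and 0 higher, and their summed level was 179 to 445.9 CPM in siYap libraries and 229.6 to 514.1 CPM in siLuc libraries. Dendritic cell genes had 1 of 10 higher and 1 lower, T and NK cell genes 2 of 13 higher and 1 lower, B and plasma cell genes 1 of 7 lower, and red cell genes 1 of 7 lower. Of the listed genes, Hba-a1 of red cells alone was at 0 in all libraries.

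Sinusoidal endothelium, which lines the vessels where Kupffer cells sit, was followed by 12 genes, of which 3 were higher and 0 lower, a share called below the 30.8% of all genes tested. Their summed level was 252.2 to 671.3 CPM in siYap libraries and 238.6 to 510 CPM in siLuc libraries, and none was at 0 in all libraries. Lyve1, a hyaluronan receptor, was higher by 2.17 (adjusted p = 0.0108, edgeR) and the endothelial receptor Tie1 by 0.65 (adjusted p = 0.0102, edgeR), a call lost without siYap 1 and 3 together (0.42, adjusted p = 0.124, edgeR). The third was the scavenger receptor Stab2 (1.11, adjusted p = 0.0437, edgeR), whose call was lost without any 1 of siYap 1, 3, 4 and 5 and siLuc 1, 2, 3, 5 and 6 (adjusted p = 0.0616 to 0.105, edgeR) and without siYap 1 and 3 together (adjusted p = 0.235, edgeR). The deviations of the 12 endothelial genes had a median r of 0.61 with Clec4f, up to 0.87 for Stab2, beside a median of -0.05 for the 5 general macrophage genes, 0.48 for the 16 other Kupffer genes, 0.57 for dendritic cell genes and 0.44 for both monocyte and neutrophil genes. The part of sinusoidal tissue in the spread of the Kupffer genes was not tested. Stellate cell and fibroblast genes had 3 of 12 higher and 0 lower and a median r of 0.41 with Clec4f, with a summed level of 683.4 to 3802 CPM in siYap libraries and 308.5 to 1357 CPM in siLuc libraries. Hepatocyte genes had 2 of 10 lower and 0 higher and a median r of -0.12.

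Among 11597 genes compared, the 5 whose deviations were most like those of Clec4f were Cd5l (r = 0.93), Marco (0.92), Ehd3 (0.91), Folr2 (0.91) and Tgfbr3 (0.90). Folr2, the folate receptor of tissue macrophages, averaged 2.34 ± 0.75 FPKM in siYap tumours and 2.88 ± 2.3 FPKM in siLuc tumours (log2 fold change -0.19, adjusted p = 0.799, edgeR). Tgfbr3, a co-receptor for TGF-beta, averaged 5.84 ± 1.17 FPKM in siYap tumours and 1.59 ± 0.679 FPKM in siLuc tumours (1.89, adjusted p = 0.000238, edgeR). Ehd3, a membrane trafficking protein, was higher by 0.97 (adjusted p = 0.0395, edgeR), a call lost without any 1 of siYap 1, 3 and 4 and siLuc 1, 3, 4 and 6 (adjusted p = 0.0516 to 0.107, edgeR) and without siYap 1 and 3 together (adjusted p = 0.234, edgeR). The log2 fold changes of all 5 lay above the -2.47 of Clec4f. The 5 genes most like Csf1r were Gdap10 (r = 0.95), Clmn (0.91), Ccdc82 (0.90), Zbed6 (0.90) and Sox5 (0.90). None of these 5 is a member or in any of the lists, and their differences did not pass the test, with adjusted p from 0.188 to 0.278 (edgeR).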

How the data were processed

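Tumour RNA of 5 siYap and 8 siLuc libraries was used. A kit with ribosomal RNA removal (ScriptSeq Complete Gold) and a HiSeq2500 were used, per the labels' protocols. The submitters' processing notes name mm10 and the tools Cuffdiff 2.1.1, Cufflinks, TopHat2 2.0.8 and Trimmomatic 0.30. Their roles, the annotation and the treatment of reads with several matches are not stated there. The authors deposited 1 table per library with raw fragments, which are estimated counts, and FPKM. In each library 97.6% to 98.0% of the estimated counts were whole within 1e-06. Per the file headers, 3 genes carried a mark of too high depth and were left out, and all 10 members had the status OK in all libraries.

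The estimated counts were rounded and tested with edgeR 4.0.16 in R 4.3.3 (quasi-likelihood F test, robust, TMM, default filter by group, siYap against siLuc, no covariate), with Benjamini-Hochberg adjustment over the 15132 genes tested and a threshold of 0.05. The SE is the log2 fold change over the root of F. Levels are deposited FPKM as mean ± SD. Ratio tests were exact and two-sided (scipy 1.17.1), with 0.1 added to each FPKM. Likeness is Pearson's r of log2 CPM deviations from the group mean, among genes that averaged 1 FPKM or more in siYap or siLuc libraries. Of each list, the called genes among the 3 with the smallest p are named for the macrophage, monocyte, neutrophil, niche and endothelial lists, and the other lists are given by their counts. Members and lists were chosen with earlier results of these data known. The ratios between pairs of members other than Clec4f over Csf1r and its listed alternatives were added after seeing the data. The fit was also run on simulated counts that gave every gene the same relative spread, unlike the Kupffer genes here. That run is therefore no check of the calls for the members. Gene positions and upstream sequences are RefSeq on GRCm38.p6, and transcripts were aligned with Biopython 1.88.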

Additional observations from a re-analysis of the deposited data

Results flagged for a closer look

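Chance flags about 1 in 20 groups of samples, and 28 groups were examined for a library far from the others. The Clec4f level of siLuc replicate 7, at 31.2 FPKM, stood apart from the next highest siLuc library at 12.8 FPKM. The Vsig4 level of the same library, at 23.3 FPKM, stood apart from the next at 9.7 FPKM. The Cd68 level of siLuc replicate 1, at 9.81 FPKM, stood apart from the next at 6.12 FPKM, and without that library the Cd68 difference was 0.78 on the log2 scale (adjusted p = 0.0219, edgeR).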

How the results depend on the processing

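Replicate numbers did not pair libraries: the deviations of same-numbered libraries correlated between -0.12 and 0.13. With the replicate number as a block, 2325 genes were called in all, 0 Kupffer genes and 2 general genes (Lyz1 and Lyz2), Folr2 was 0.11 on the log2 scale, and the difference in log2 Clec4f over Csf1r was -1.50 (exact p = 0.0625, the smallest that 5 pairs allow, so this fit could not pass 0.05). Leaving out siYap 1 and 3 gave 2984 genes called and 0 Kupffer genes, with Csf1 at -0.27, Clmn at -0.19 and Zbed6 at -0.02. An adjusted p under 0.01 gave 2362 genes and 0 Kupffer genes. Counts summed per number in the library names gave 0 Kupffer genes and 0.04 for Folr2. With the digit as a term 2 Kupffer genes were called (Clec4f and Cd5l), and Timd4 was 0.09, Il34 0.02 and Folr2 0.19; DESeq2's Wald test called 2 (Clec4f and Vsig4). Limma on log2(FPKM + 0.1) gave 0.08 for Folr2, and upper-quartile scaling 0.01 for Il34. Leaving out each library in turn called 1 to 2 Kupffer genes, and moved Il34 between -0.35 and 0.18, Folr2 between -0.35 and 0.19 and log2 Clec4f over Csf1r between -1.91 and -1.23. That ratio was -2.80 with Cd68 as the denominator (exact p = 0.00932), 0.43 with Timd4 as the numerator (exact p = 0.535) and 0.65 within the digit 8. The causes were not tested. Marco, Timd4 and Vsig4 rest on as few as 6, 18 and 32 fragments in the lowest library, which limits their precision.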
